A study of Mus musculus with 10 samples.

Results

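The transcriptome of *Ntn1SPKO* kidneys, in which netrin-1 is deleted from the stroma, was compared with that of wild-type kidneys. Members of the comparison were the 7 bulk RNA-seq libraries labelled mutant (3) or wild type (4), out of 10 in the series, and the 14432 of 35663 listed genes whose FPKM averaged 0.5 or more in them. All libraries came from dissected kidneys of mouse embryos at E13.5 on a C57/b6 background. Wild-type kidneys carried no engineered allele by their labels. *Ntn1SPKO* kidneys carried the *Foxd1GC* allele, which makes a GFP-Cre fusion in stromal progenitors, and conditional *Ntn1* alleles (*Foxd1-Cre* with Ntn1/cc in the labels). The *Foxd1GC* allele takes the place of 1 *Foxd1* copy, so the 2 groups differ in *Ntn1*, in Cre and in *Foxd1* dose, and these cannot be told apart in this comparison. The 3 *Foxd1GC* control libraries, which carry Cre without the deletion, did not enter the main test. They entered only an alternative fit of all 10 libraries, and their values are given for the leading genes. The labels do not say whether a library was 1 embryo or a pool. All p-values therefore measure the spread between libraries, which may be partly technical.

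Netrin-1 is a secreted, laminin-related guidance protein that attracts or repels axons and vessels through receptors such as *Dcc*, *Neo1* and the Unc5 family. In the embryonic kidney it is made by *Foxd1*-positive stromal progenitors, which surround the nephron progenitors and the ureteric tips and give rise to interstitial fibroblasts, pericytes, vascular smooth muscle and renin cells. *Klf4*, a zinc-finger transcription factor, is known for holding smooth muscle genes down in progenitors of that lineage.

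Values are FPKM, fragments scaled for transcript length and sequencing depth. A difference is the mutant mean minus the wild-type mean of log2(FPKM+0.1), given with its 95% confidence interval from limma, and it understates the change of genes near the pseudocount of 0.1. A gene was called at a Benjamini-Hochberg adjusted p under 0.1 together with at least a 2-fold change. With 3 libraries against 4, the smallest p of the exact permutation test is 0.0286 (two-sided, 35 arrangements). For genes named by a small limma p, reaching this floor is no separate support.

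The smallest steps between low values put the depth of a library at roughly 27000000 to 32000000 fragments in both groups. Summed FPKM was 795829 to 818731 in 6 of the 7 libraries and 1002638 in wild-type replicate 3. Y-linked transcripts were present in all 3 mutant libraries (mean of 4 genes 22.1 to 23.8 FPKM) and, among wild-type libraries, only in replicate 3 (24.0 FPKM, against 0.0526 to 0.161). Embryo sex and genotype are thus largely confounded. The difference from wild-type replicate 3 alone is given for the protein-coding genes with an adjusted p under 0.1 and for some others. Kidney markers were present in all 7 libraries: *Six2* (nephron progenitors) was at 63.1 to 92.5 FPKM, *Gata3* (ureteric bud) at 35.1 to 45.4, *Meis1* (stroma) at 67.2 to 76.6 and *Cdh5* (endothelium) at 34.7 to 51.2. The adrenal and gonad markers *Nr5a1*, *Star* and *Cyp11a1* reached at most 0.389 FPKM. Some genes of other tissues were present. The skeletal muscle gene *Mylpf* was at 61.5 to 103 FPKM in wild-type and at 38.1, 2.35 and 23.0 in mutant libraries. *Dbh*, from the nerve and neural crest list, was at 3.51 FPKM in wild-type replicate 4 and 4.62 in mutant replicate 3. In the rest of the 7 libraries it was at most 0.113, and *Sox10* of the same list reached at most 0.393 in any of them. Among the controls, replicate 3 stood apart for ureteric genes, with *Gata3* at 9.10 and *Ret* at 4.09 FPKM.

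*Ntn1* itself (ENSMUSG00000020902.12, GRCm38 chromosome 11, 68209364 to 68400823) checks the labels. Wild-type replicates 1 to 4 held 31.9, 28.3, 27.1 and 46.3 FPKM, and mutant replicates 1 to 3 held 16.3, 13.1 and 10.7. Every mutant library lay below every wild-type library, at 13.4 ± 2.81 FPKM (SD, n = 3) against 33.4 ± 8.81 (n = 4). The difference was -1.30 (interval -1.80 to -0.81), or 40.5% of the wild-type level, with an exact permutation p of 0.0286 and a limma adjusted p of 0.14 over all genes. So the deleted gene separated the groups without passing the adjusted threshold, and *Ntn1* transcript remained in whole mutant kidneys. *Foxd1GC* control replicates 1 to 3 were at 40.7, 24.2 and 51.4 FPKM. *Foxd1*, the forkhead factor whose locus holds the Cre, was also lower in all 3 mutants (ENSMUSG00000078302.5, chromosome 13, 98354242 to 98359305). Its values were 24.1, 21.3, 21.4 and 30.7 FPKM in wild-type and 14.3, 15.4 and 14.2 FPKM in mutant libraries, a difference of -0.72 (interval -1.02 to -0.41, limma adjusted p = 0.193, exact permutation p = 0.0286). The controls, with the same allele, were at 19.7, 14.6 and 25.6 FPKM and overlapped both groups. In bulk RNA, fewer stromal cells and less RNA per stromal cell cannot be told apart.

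**Figure D1:**
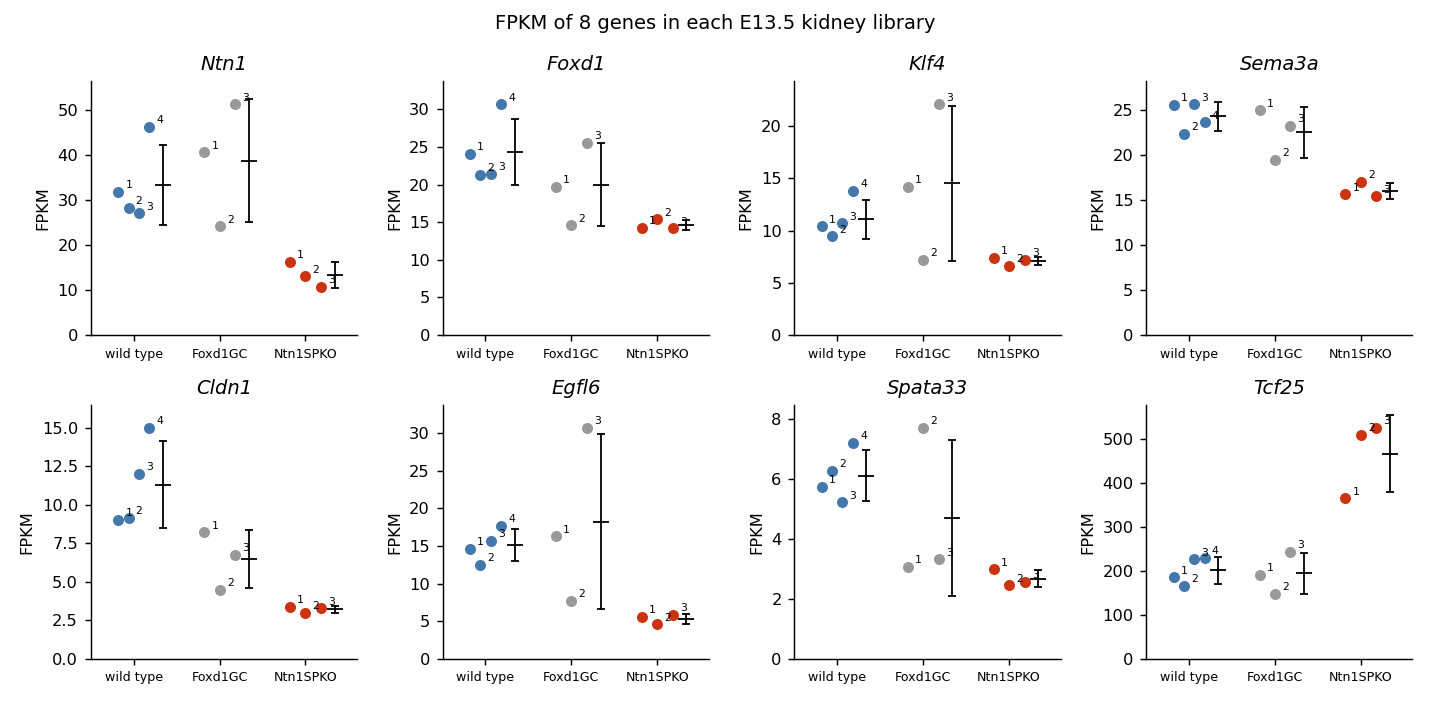
FPKM (y axis) of 8 genes in wild-type (blue, n = 4), *Foxd1GC* control (grey, n = 3) and *Ntn1SPKO* (red, n = 3) libraries, 1 numbered point per library, with bars for the mean ± SD, cut at 0. The red points lie outside the blue range in every panel, while control replicate 2 sits near the mutants for *Klf4*, *Foxd1* and *Egfl6* and control replicates 1 and 3 do so for *Spata33*.

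Other netrins and the netrin receptors gave small differences. Of 14 listed genes 10 were tested, 5 were lower and 5 higher, and *Ntn1* alone had an unadjusted p under 0.05. The list median was 0.01, beside 0.00 over all genes tested. *Unc5b*, a repulsive netrin receptor of endothelium, was at 9.34, 9.06 and 9.83 FPKM in mutants and 6.39 to 8.98 in wild-type libraries, a difference of 0.26 (interval -0.01 to 0.54, limma adjusted p = 0.882). The groups did not overlap for *Unc5b*, by a margin of less than 0.1 FPKM. *Unc5c* was at 43.3 ± 3.47 FPKM in mutants and 38.9 ± 4.23 in wild-type kidneys (interval -0.08 to 0.40). *Neo1*, which encodes neogenin, was at 47.4 ± 1.89 and 47.9 ± 5.12 FPKM (interval -0.23 to 0.21).

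Across all 14432 genes, 6 were called lower (0.0416%) and 1 was called higher (0.00693%). Of these 7, 4 are pseudogenes. Without a fold limit, 10 genes had a limma adjusted p under 0.1, 8 lower and 2 higher. An unadjusted p under 0.05 was reached by 478 lower (3.31%) and 354 higher genes (2.45%). Mutant and wild-type libraries did not overlap for 511 lower (3.54%) and 514 higher genes (3.56%), and a change of 2-fold or more joined this in 78 lower and 19 higher genes. Changes of that size were thus found more often among lower genes, although 48.9% of all genes were lower. The counts rest on single libraries: without mutant replicate 2 only 1 gene was called lower and 0 higher (limma, with 361 lower and 236 higher at an unadjusted p under 0.05), without mutant replicate 1 the numbers were 16 and 3, without wild-type replicate 4 they were 18 and 2, and without wild-type replicate 3 they were 8 and 9. The single higher call became 0 without wild-type replicate 2 (limma, 335 at an unadjusted p under 0.05) and 2 without mutant replicate 3.

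**Figure D2:**
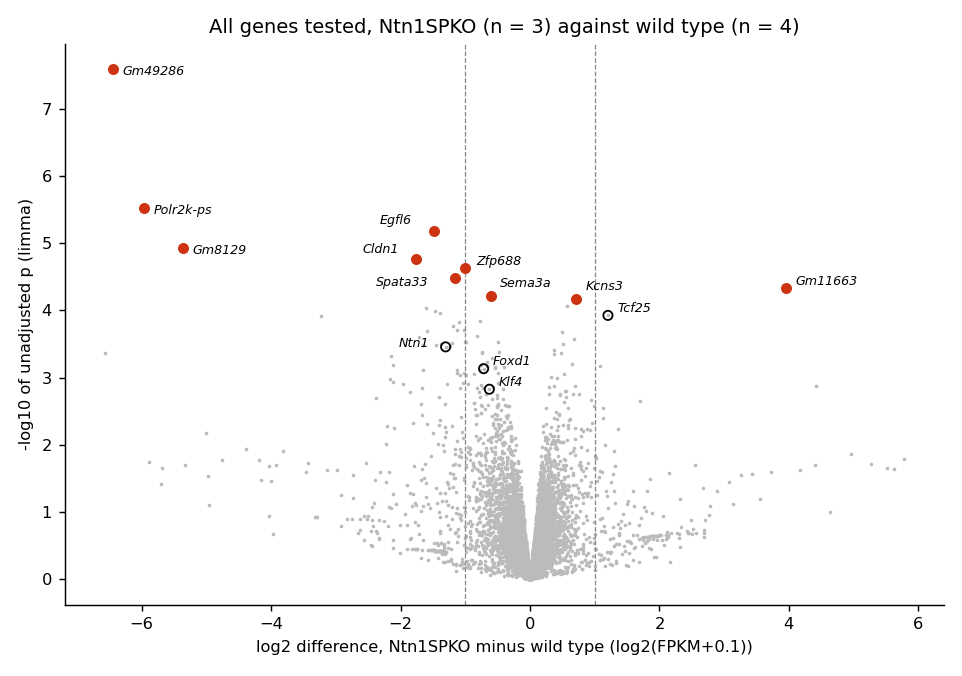
Difference in mean log2(FPKM+0.1) between *Ntn1SPKO* and wild-type kidneys (x axis) against -log10 of the unadjusted limma p (y axis) for the 14432 genes tested. Red points are the 10 genes with an adjusted p under 0.1, open circles are 4 other genes described in the text, and dashed lines mark a 2-fold change.

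*Egfl6*, an EGF-repeat matrix protein with an integrin-binding motif, had the smallest p of the protein-coding genes (ENSMUSG00000000402.2, chromosome X, 166523007 to 166585720). Wild-type libraries held 14.6, 12.5, 15.7 and 17.7 FPKM and mutant libraries 5.55, 4.60 and 5.84 FPKM. *Egfl6* fell to 35.8% of the wild-type level, a difference of -1.48 (interval -1.80 to -1.17, limma adjusted p = 0.032, exact permutation p = 0.0286). Against wild-type replicate 3 alone the difference was -1.55. The controls were at 16.3, 7.68 and 30.7 FPKM, so that control replicate 2 lay between the groups and replicate 3 above both. Without mutant replicate 2 *Egfl6* was no longer called.

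*Cldn1*, which encodes the tight-junction protein claudin-1, had the largest fall of the called protein-coding genes (ENSMUSG00000022512.3, chromosome 16, 26356642 to 26371841). It was at 9.03, 9.17, 12.0 and 15 FPKM in wild-type and at 3.37, 2.97 and 3.27 FPKM in mutant libraries. *Cldn1* fell to 29.6% of the wild-type level, a difference of -1.76 (interval -2.18 to -1.33, limma adjusted p = 0.0491, exact permutation p = 0.0286), and by -1.87 against wild-type replicate 3 alone. Controls were at 8.22, 4.49 and 6.77 FPKM, and every control library lay between the 2 groups. The call was lost without mutant replicate 2 (limma adjusted p = 0.203) or mutant replicate 3 (limma adjusted p = 0.179). Of 24 claudin genes found, 11 were tested, and *Cldn1* was the only one called. *Cldn12* had the next smallest p, at 23.5, 24.1 and 22.0 FPKM in mutants against 22.7 to 32.3 in wild-type libraries, and the groups overlapped at a difference of -0.32 (limma adjusted p = 0.813).

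*Sema3a*, a secreted class 3 semaphorin that repels axons and endothelial cells through neuropilin-1 and plexins, passed the adjusted threshold with less than a 2-fold change (ENSMUSG00000028883.17, chromosome 5, 13125414 to 13602565). Its libraries were tight: 25.5, 22.3, 25.6 and 23.6 FPKM in wild-type, 15.6, 17.0 and 15.4 FPKM in mutant kidneys. *Sema3a* fell to 66.1% of the wild-type level (difference -0.60, interval -0.77 to -0.42, limma adjusted p = 0.0973). The adjusted p is close to the threshold, and it was above 0.1 without wild-type replicate 1, 2 or 4 and without each mutant replicate. Control libraries held 24.9, 19.4 and 23.2 FPKM, and no mutant reached the lowest of them.

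The promoters of the 2 called protein-coding genes with the largest falls are shown because *Klf4*-type factors bind CACCC boxes, and *Klf4* was lower in all 3 mutants. Each runs from 250 bases before to 50 bases after the annotated start in RefSeq (GRCm38.p6, both on the minus strand, chr16:26371790-26372089 for *Cldn1* and chrX:166585667-166585966 for *Egfl6*), written 5′ to 3′ in lower case with CACCC and its reverse complement GGGTG in capitals.
Cldn1: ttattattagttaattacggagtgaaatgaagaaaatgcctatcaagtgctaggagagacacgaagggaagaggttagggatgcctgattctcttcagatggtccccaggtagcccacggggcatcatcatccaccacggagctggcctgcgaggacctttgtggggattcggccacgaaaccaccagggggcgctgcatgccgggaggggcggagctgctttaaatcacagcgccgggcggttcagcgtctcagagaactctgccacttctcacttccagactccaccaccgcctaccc
Egfl6: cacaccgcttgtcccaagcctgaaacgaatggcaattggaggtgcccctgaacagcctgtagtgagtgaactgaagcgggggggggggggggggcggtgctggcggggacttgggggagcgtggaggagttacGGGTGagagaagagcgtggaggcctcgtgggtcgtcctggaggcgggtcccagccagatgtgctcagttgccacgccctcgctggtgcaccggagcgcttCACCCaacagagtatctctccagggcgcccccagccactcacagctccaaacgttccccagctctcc
The *Egfl6* window holds 2 such motifs and the *Cldn1* window 0, where 57.5% of all 32851 RefSeq promoter windows of this length hold at least 1. The match describes these letters and is not evidence of binding.

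The third protein-coding gene called lower was *Spata33*, a testis-enriched gene tied to calcineurin and mitochondria in sperm (ENSMUSG00000048478.7, chromosome 8, 123212832 to 123222046). *Spata33* fell from 5.74, 6.27, 5.22 and 7.22 FPKM to 2.99, 2.46 and 2.58 FPKM (difference -1.16, interval -1.47 to -0.85, limma adjusted p = 0.0688). The controls split, with replicates 1 and 3 at 3.08 and 3.32 FPKM near the mutants and replicate 2 at 7.71 FPKM above the wild-type range. The call was lost without wild-type replicate 1 or 2 and without mutant replicate 2 or 3. Against wild-type replicate 3 alone the *Spata33* difference was -0.94, less than 2-fold. *Tcf25*, a translation-associated quality-control factor, begins 152 kb past the end of *Spata33* on the same chromosome and was higher in all 3 mutants. It was at 185, 166, 226 and 229 FPKM in wild-type and at 365, 509 and 525 FPKM in mutant libraries, a difference of 1.20 (interval 0.82 to 1.59, limma adjusted p = 0.11), with controls at 191, 148 and 243 FPKM. Against wild-type replicate 3 alone the *Tcf25* difference was 1.02. Within 1 Mb on each side of *Spata33*, 43 other genes were tested, and groups did not overlap for 2 lower and 3 higher ones (3.54% and 3.56% over all genes): *Tcf25*, *Acta1*, *Zfp276*, *Cdh15* and *Abcb10*. The windows around *Ntn1* (21 genes, 2 lower and 1 higher) and *Foxd1* (13 genes, 0 and 0) were read in the same way. These windows were chosen after the values were seen.

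*Zfp688* and *Kcns3* also had an adjusted p under 0.1 without the 2-fold change. *Zfp688*, which encodes a zinc-finger protein, fell from 12.7, 10.3, 11.3 and 11.6 FPKM to 4.93, 6.12 and 6.11 FPKM, just short of 2-fold (50% of the wild-type level after rounding, limma adjusted p = 0.0569). *Kcns3*, a modulatory potassium channel subunit, rose from 3.98, 4.22, 3.93 and 4.74 FPKM to 6.95, 7.09 and 6.86 FPKM (difference 0.71, interval 0.50 to 0.93, limma adjusted p = 0.0973). Control replicates 1 and 2 were at 11.2 and 6.60 FPKM for *Zfp688*, and replicate 3 was above every wild-type library. For *Kcns3* the controls were at 5.70, 5.95 and 7.71 FPKM, again above every wild-type library. Against wild-type replicate 3 alone the difference was -0.98 for *Zfp688* and 0.81 for *Kcns3*.

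The 4 called pseudogenes were listed at 0 in every library of 1 group, and their reads may be shared with near-identical parent genes. The 3 lower ones had close values in all wild-type libraries but 1. Values of these short entries may rest on a few fragments each, and a listed 0 need not mean absence. Fragment counts were not available, so this was not tested. *Gm49286* (chromosome 15, 3991994 to 3992095) was at 6.94, 7.30, 14.3 and 7.56 FPKM in wild-type libraries and listed at 0 in every mutant. *Polr2k-ps* (chromosome 11, 95761491 to 95761665) was at 16.6, 4.35, 4.26 and 4.50 FPKM and *Gm8129* (chromosome 6, 52346730 to 52346942) at 2.71, 2.85, 2.79 and 11.8 FPKM, again listed at 0 in all mutants. *Gm11663* (chromosome 11, 104571268 to 104571557) was listed at 0 in all wild-type libraries and held 1.55, 2.31 and 0.856 FPKM in mutants. Single controls were at 0 as well: replicate 2 for *Gm49286* and *Polr2k-ps*, replicates 1 and 3 for *Gm8129*, and replicate 3 for *Gm11663*. Of the genes tested, 11.1% are pseudogenes or predicted entries.

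With the called genes included, 63 lower and 8 higher genes other than predicted entries differed by at least 2-fold with no overlap between groups. The 12 lower ones with the smallest p after the called genes, and the 8 higher ones, are described here with *Tcf25* given above. *Igfbp6*, which binds IGF-II, was at 3.50 ± 0.488 FPKM in mutants and 11.1 ± 2.96 in wild-type kidneys (difference -1.61, limma adjusted p = 0.11). *Rxfp2*, the receptor of insulin-like peptide 3, was at 3.56 ± 0.925 and 9.90 ± 1.66 FPKM (-1.47). *Wif1*, a secreted Wnt inhibitor, was at 0.775 ± 0.189 and 2.16 ± 0.202 FPKM (-1.39). For *Fgf18*, an FGF ligand, the means were 3.30 ± 0.216 and 7.27 ± 1.42 FPKM (-1.10), and for the ligand *Wnt2* they were 0.947 ± 0.148 and 2.00 ± 0.147 FPKM (-1.01). *Zfhx4* and *Ebf2* encode transcription factors. *Zfhx4* was at 1.73, 1.5 and 2.08 FPKM in mutants against 3.55 to 5.26 in wild-type libraries, and *Ebf2* was at 1.61, 1.98 and 2.13 against 3.49 to 4.61 FPKM. *Il13ra2*, a decoy receptor for interleukin-13, was at 0.204, 0.215 and 0.269 FPKM against 0.764 to 1.16 (-1.72). None of these genes passed an adjusted p of 0.1, and their adjusted p ranged from 0.11 to 0.14.

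Control libraries did not lie with one group for these genes. For *Ebf2*, control replicates 1 and 3 (7.06 and 15.3 FPKM) exceeded all wild-type libraries while replicate 2 (1.96 FPKM) fell among the mutants, and *Zfhx4* (6.92, 1.61 and 15.6 FPKM) and *Wnt2* (3.06, 1.27 and 5.61 FPKM) had the same order. In a second set replicate 2 was the highest control. *Pcp4*, which encodes a small calmodulin-binding peptide, was at 5.79, 4.90 and 5.75 FPKM in mutants and 8.85 to 14.5 in wild-type libraries, and control replicates 1 to 3 were at 4.98, 11 and 5.03 FPKM. *Cpb2*, a plasma carboxypeptidase, was at 0.469, 0.600 and 0.642 FPKM in mutants, 1.31 to 2.32 in wild-type and 0.419, 1.55 and 0.216 in control libraries. *Cltrn*, which encodes collectrin, a partner of amino acid transporters in the proximal tubule, was at 0.654, 0.632 and 0.815 FPKM in mutants and 1.40 to 2.05 in wild-type libraries, with controls at 0.575, 1.09 and 0.262 FPKM. *Tmem52b* was at 0.709 ± 0.209 FPKM in mutants and 1.96 ± 0.264 in wild-type kidneys, with controls at 0.509, 1.39 and 0.255 FPKM. Control replicate 2, the only control with Y-linked transcripts, was thus nearest to the mutants in the first set and above every mutant library in the second.

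**Figure D3:**
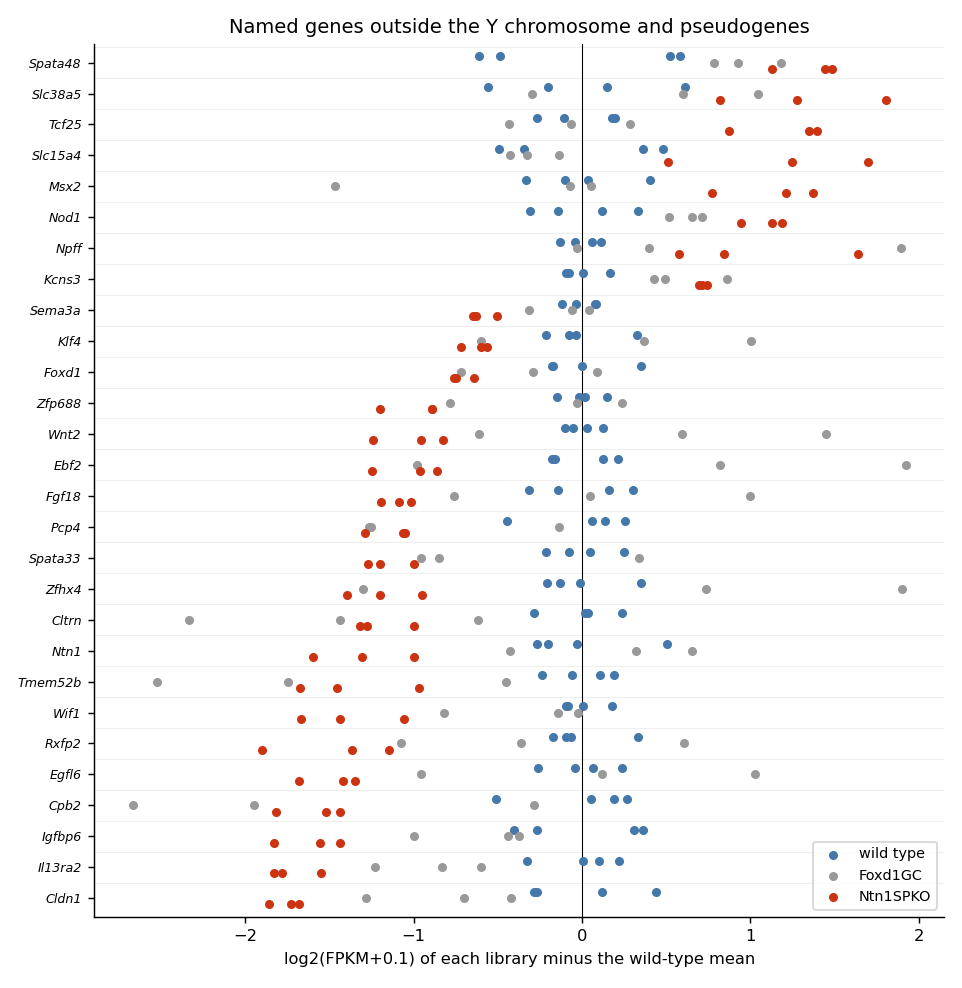
Each library's log2(FPKM+0.1) minus the wild-type mean (x axis) for *Ntn1*, *Klf4*, *Cldn1*, *Sema3a*, *Foxd1*, the other genes with an adjusted p under 0.1 and the genes filled in by p, leaving out Y-linked genes and pseudogenes (rows), with wild-type libraries in blue (n = 4), *Foxd1GC* controls in grey (n = 3) and *Ntn1SPKO* libraries in red (n = 3). Red and blue points do not overlap in any row. Grey points lie with either group, between the groups or beyond them, depending on the row.

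Among higher genes, *Nod1*, an intracellular sensor of bacterial peptidoglycan, was at 2.43, 2.33 and 2.04 FPKM in mutants against 0.798 to 1.30 in wild-type libraries (difference 1.08, limma adjusted p = 0.189). Controls lay between the groups, at 1.65, 1.72 and 1.49 FPKM. *Msx2*, a BMP-responsive homeobox gene, was at 1.22 ± 0.269 FPKM in mutants and 0.506 ± 0.133 in wild-type kidneys (1.12, limma adjusted p = 0.397), and controls were at 0.466, 0.518 and 0.115 FPKM. *Slc15a4*, a lysosomal histidine and peptide transporter, was at 30.0, 13.1 and 21.9 FPKM against 6.48 to 12.8 FPKM (1.15), close to touching at mutant replicate 2. *Spata48* (1.35), the amino acid transporter *Slc38a5* (1.30) and the neuropeptide gene *Npff* (1.02) complete the set at means under 2 FPKM. *Kdm5d*, the remaining one, is Y-linked and had wild-type replicate 3 at 14.4 FPKM beside mutants at 15.1 to 17.7.

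*Klf4* (ENSMUSG00000003032.8, chromosome 4, 55527143 to 55532466) was lower in all 3 mutants. Wild-type libraries held 10.4, 9.45, 10.7 and 13.8 FPKM and mutant libraries 7.39, 6.62 and 7.20 FPKM, a mean of 7.07 ± 0.402 against 11.1 ± 1.87. The difference was -0.63 (interval -0.93 to -0.33), or 64.7% of the wild-type level, with an exact permutation p of 0.0286 and a limma adjusted p of 0.25. Control libraries ran from 7.22 FPKM in replicate 2, inside the mutant range, to 14.2 and 22.1 FPKM in replicates 1 and 3, above the wild-type range. Of 16 Kruppel-like factors found, 15 were tested, 6 were lower and 9 higher, with a median of 0.03. Besides *Klf4*, *Klf14* (1.84, 2.01 and 1.85 FPKM against 2.20 to 3.18, difference -0.52) and *Klf15* (1.83, 1.89 and 1.68 FPKM against 1.04 to 1.33, difference 0.59) had groups that did not overlap. Both had a limma adjusted p above 0.4 (0.536 and 0.442). With *Klf4*, groups did not overlap for 2 lower and 1 higher of the 15 tested (3.54% and 3.56% over all genes). Immediate early genes, transcribed within minutes of a stimulus or of handling, showed no common shift: 12 of 31 were lower and 19 higher, with a median of 0.04. *Jun*, an AP-1 subunit, was at 14.9 to 17.9 FPKM in mutant and 18.7 to 20.5 in wild-type libraries, while *Myc*, a growth regulator, was at 50.2 to 54.6 against 42.5 to 45.0 FPKM.

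Stromal genes went in both directions. Of 22 tested genes of the cortical stroma, 7 were lower and 1 higher at an unadjusted p under 0.05, and the median of -0.03 was near 0. The lower genes besides *Ntn1* and *Foxd1* included *Fibin*, a secreted factor of mesenchyme (9.20 ± 1.61 FPKM in mutants, 12.3 ± 0.783 in wild type), and *Tgfbi*, a TGF-beta-induced matrix protein (103, 100 and 95.8 FPKM against 112 to 138). *Pdgfra*, the PDGF receptor of fibroblasts, was at 55.2, 51.4 and 57.7 FPKM against 58.7 to 66.0, a difference of -0.17. *Cxcl12*, a chemokine of stroma and arteries, went the other way, with 92.5, 112 and 119 FPKM in mutants against 78.9 to 89.3 in wild-type libraries (difference 0.34, limma adjusted p = 0.541). None of the list passed the adjusted threshold, and general stromal factors such as *Meis1* and *Tcf21* overlapped between groups.

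In the list of medullary and ureteric stroma, 2 of 21 genes were lower and 2 higher at an unadjusted p under 0.05 (3.31% and 2.45% over all genes). *Smoc2*, a calcium-binding matricellular protein, was at 22.8, 15.1 and 16.5 FPKM in mutants and 36.6, 34.1, 46.0 and 54.9 in wild-type libraries (difference -1.24, limma adjusted p = 0.14, exact permutation p = 0.0286). *Postn*, which encodes periostin of the collagen matrix, was at 43.5, 37.7 and 58.3 FPKM against 83.7, 81.7, 108 and 133 FPKM (-1.12, limma adjusted p = 0.203, exact permutation p = 0.0286). Controls were at 45.8, 22.9 and 59.4 FPKM for *Smoc2* and 137, 57.9 and 191 FPKM for *Postn*, so replicate 2 again came nearest to the mutants. *Wnt5a*, a non-canonical Wnt ligand, was higher, at 14.8, 15.1 and 16.8 FPKM against 10.3 to 13.8 (0.41, limma adjusted p = 0.459).

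Matrix genes as a whole moved little, with 25 of 38 lower, 13 higher and a median of -0.09. *Egfl6* was the only member called. *Fbln5*, an elastic-fibre protein, had the next smallest p and was higher, at 19.1, 23.2 and 25.7 FPKM in mutants against 13.2 to 14.7 in wild-type libraries (difference 0.68, limma adjusted p = 0.14). Control replicates 1 and 3 were higher still, at 31.7 and 48.6 FPKM, and replicate 2 lay between the groups at 16.7 FPKM.

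Smooth muscle contractile genes overlapped between the groups. Of 13 tested genes 4 were lower and 9 higher. In limma 0 had an unadjusted p under 0.05 (3.31% lower and 2.45% higher over all genes). Likewise 0 had groups that did not overlap (3.54% and 3.56% over all genes), and 0 of 13 is close to these shares. The median was 0.14, or 0.02, 0.00 and -0.01 without wild-type replicate 3, wild-type replicate 4 or mutant replicate 3. *Acta2*, which encodes smooth muscle actin, was at 16.1, 22.4 and 20.4 FPKM in mutants and 25.3, 23.2, 21.3 and 15.3 in wild-type libraries, a difference of -0.10 with an interval of -0.54 to 0.33. *Tagln*, or SM22, was at 4.02, 11.3 and 12.0 FPKM against 8.99, 5.88, 11.3 and 3.95 (interval -0.87 to 1.33), with an overlap across nearly the whole range. Mural and renin lineage genes had 2 lower and 1 higher of 17 at an unadjusted p under 0.05 (3.31% and 2.45% over all genes). *Anpep*, an aminopeptidase of pericytes and tubules, was at 12.3 to 15.1 FPKM against 15.1 to 22.3, and *Akr1b7*, an aldo-keto reductase of renin cells, at 2.74 to 3.42 against 3.39 to 6.54 FPKM. *Ren1* itself was at 1.79, 1.31 and 1.84 FPKM against 1.43 to 8.91 FPKM in wild-type libraries, with replicate 3 highest.

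Pan-endothelial genes were mostly higher by small amounts, with 17 of 19 higher and a median of 0.21. An unadjusted p under 0.05 was reached by 4 of the higher ones, and groups did not overlap for 6 (2.45% and 3.56% over all genes). *Pecam1*, an endothelial adhesion protein, was at 30.3, 33.0 and 32.5 FPKM in mutants against 29.8, 28.0, 24.7 and 23.3 in wild-type libraries (difference 0.28, limma adjusted p = 0.724). *Erg*, an endothelial ETS factor, was at 7.42, 8.10 and 7.4 FPKM against 4.69 to 6.64 (0.43). *Kdr*, the main VEGF receptor, overlapped, at 20.3, 21.0 and 20.5 FPKM against 14.6 to 20.6 (interval -0.06 to 0.54). Controls were at 29.3, 32.1 and 33.3 FPKM for *Pecam1*, 6.00, 6.75 and 6.06 for *Erg* and 20.4, 19.6 and 18.5 for *Kdr*. Arterial and flow genes had 1 of 17 at an unadjusted p under 0.05, *Cxcl12*, and *Gja5*, which encodes connexin 40 of arteries, was at 3.44, 7.91 and 8.82 FPKM against 5.13 to 9.76.

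Among 34 vessel guidance and growth factor genes, 3 were lower and 3 higher at an unadjusted p under 0.05 (3.31% and 2.45% over all genes). The median difference was 0.09, and *Sema3a* was the only one with an adjusted p under 0.1. The median level per library went the other way, at 3.99, 4.04 and 4.08 in log2(FPKM+0.1) in mutants, 4.10 to 4.29 in wild-type and 4.43, 4.13 and 4.40 in control libraries. *Vegfd*, a lymphatic and vascular growth factor, was at 6.81, 6.11 and 8.44 FPKM in mutants against 9.13 to 11.5 (difference -0.53, limma adjusted p = 0.378). Other class 3 semaphorins differed in direction: *Sema3d* was at 26.4, 23.9 and 23.0 FPKM against 28.4 to 37.7 (-0.35), and *Sema3b* at 3.45, 6.56 and 8.53 FPKM against 3.02 to 3.19 (0.89).

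**Figure D4:**
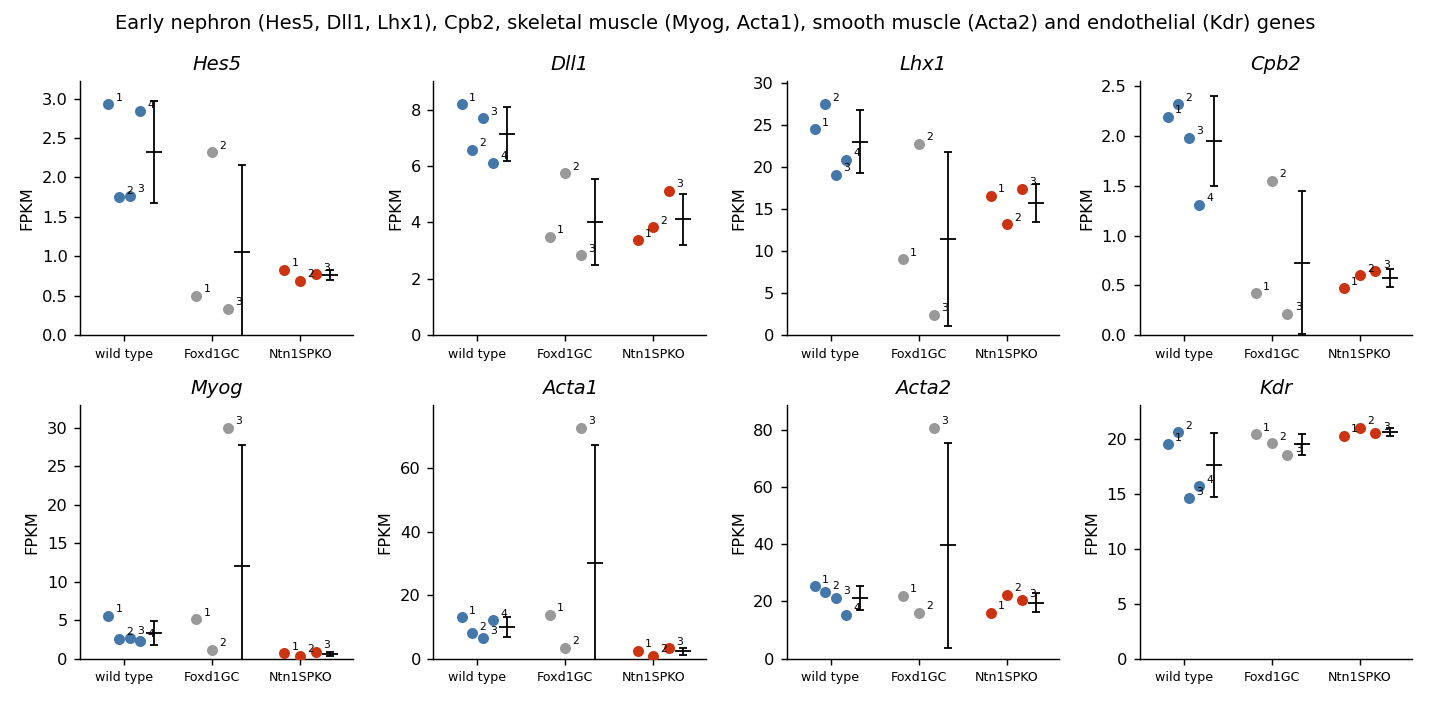
FPKM (y axis) of *Hes5*, *Dll1*, *Lhx1* and *Cpb2*, the skeletal muscle genes *Myog* and *Acta1*, the smooth muscle gene *Acta2* and the endothelial gene *Kdr* in wild-type (blue, n = 4), *Foxd1GC* control (grey, n = 3) and *Ntn1SPKO* (red, n = 3) libraries, 1 numbered point per library, with bars for the mean ± SD, cut at 0. The first 4 genes are below the wild-type range in all mutants and low in control replicates 1 and 3, and control replicate 3 is highest for *Myog*, *Acta1* (72.6 FPKM) and *Acta2* (80.6 FPKM).

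Of 23 nephron progenitor genes 16 were higher, 1 of them at an unadjusted p under 0.05 (2.45% higher over all genes). Their median was 0.11, and it was 0.03 without mutant replicate 1 and 0.18 without mutant replicate 3. *Six2*, which keeps progenitors undifferentiated, was at 88.9, 92.5 and 74.6 FPKM in mutants and 65.3, 63.1, 77.4 and 84.7 in wild-type libraries (interval -0.06 to 0.53), and *Eya1*, its cofactor, at 73.8, 69.6 and 63.4 against 52.4 to 63.2 FPKM (difference 0.27). Genes of the early nephron, podocyte and tubule had 18 of 22 lower and a median of -0.36. In this list 10 were lower and 1 higher at an unadjusted p under 0.05, and groups did not overlap for 10 lower and 1 higher, against 3.31% and 3.54% of all genes for the lower direction.

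The smallest p in the list belonged to *Hes5* and the next to *Dll1*. *Hes5*, a Notch target of the early nephron, was at 0.827, 0.691 and 0.770 FPKM in mutants and 2.93, 1.75, 1.77 and 2.84 in wild-type libraries (difference -1.45, interval -2 to -0.91, limma adjusted p = 0.14, exact permutation p = 0.0286). *Dll1*, a Notch ligand, was at 3.37, 3.83 and 5.13 FPKM against 6.12 to 8.2 (-0.79, limma adjusted p = 0.259). *Lhx1*, needed to pattern the renal vesicle, was at 16.6, 13.2 and 17.4 FPKM against 19.1 to 27.5 (-0.54), and *Irx1* of the intermediate tubule at 0.255, 0.264 and 0.353 against 0.469 to 1.44 (-1.59). *Cdh6*, a cadherin of early proximal tubule, was at 8.50 to 9.74 FPKM against 10.4 to 13.2. The exception was *Wnt4*, which triggers the change from mesenchyme to epithelium, at 18.9, 18.3 and 18.4 FPKM in mutants against 16, 16.9, 12.2 and 12.9 (0.37). Control replicates 1 and 3 were low for *Hes5*, *Dll1* and *Lhx1*, at 0.502 and 0.333 FPKM, 3.48 and 2.84 FPKM, and 9.01 and 2.44 FPKM, while replicate 2 was at 2.32, 5.74 and 22.8 FPKM. None of the list passed the adjusted threshold. Per library, the median log2(FPKM+0.1) over these genes was 2.80, 2.35 and 2.55 in mutants, 2.87 to 3.10 in wild-type and 2.53, 2.72 and 1.5 in control libraries.

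Ureteric tip genes had 14 of 18 higher, 3 of them at an unadjusted p under 0.05 (2.45% higher over all genes). Their median was 0.11 (0.06 without mutant replicate 2). *Ret*, the receptor of GDNF, was at 18.5, 20.9 and 19.8 FPKM against 14.1 to 17.2 (difference 0.31, limma adjusted p = 0.503). Genes of the trunk and of epithelia had 13 lower and 12 higher and a median of -0.01. *Gata3*, of the ureteric bud lineage, was at 36.3, 36.3 and 45.4 FPKM against 35.1 to 38.3. Signalling lists had no called member. Of 24 BMP, TGF-beta and Hedgehog genes 5 were lower and 0 higher at an unadjusted p under 0.05 (3.31% and 2.45% over all genes). The lower ones included *Tgfb2* (13.7, 13.2 and 13.8 FPKM against 16.7 to 22.7) and *Bmp2* (3.60, 2.50 and 2.50 against 3.61 to 4.96). Wnt and FGF genes had 4 lower and 4 higher of 32, led by *Wif1*, and *Dkk2*, another Wnt inhibitor, was at 7.79, 6.74 and 8.71 FPKM against 9.01 to 11.1. Of 18 retinoic acid genes 2 were lower and 1 higher, including *Aldh1a2*, the stromal retinoic acid synthase, at 184 to 208 FPKM against 214 to 256, and *Crabp1*, which binds retinoic acid, at 73.1 to 93.0 against 98.1 to 138.

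Skeletal muscle genes had the largest list difference among autosomal lists. *Des*, which the smooth muscle and mural lists also hold, was at 33.2 to 46.9 FPKM over both groups and had the highest difference in the list. Of 31 tested genes 28 were lower, 20 at an unadjusted p under 0.05 and 17 with groups that did not overlap (3.31% and 3.54% over all genes), with a median of -1.16 and a range of -2.54 to 0.21. The median was -0.67 with a pseudocount of 1, -0.78 without mutant replicate 2 and -1.5 without mutant replicate 1. *Myog*, the myogenin factor of differentiating muscle, was at 0.707, 0.379 and 0.904 FPKM in mutants and 5.62, 2.61, 2.76 and 2.34 in wild-type libraries (difference -2.14, limma adjusted p = 0.156, exact permutation p = 0.0286). *Mymk*, the fusion protein myomaker, was at 0.150, 0.105 and 0.133 FPKM against 0.573 to 1.53, *Acta1*, skeletal actin, at 2.61, 0.985 and 3.32 against 6.53 to 13.0, and *Myod1* at 0.294, 0.146 and 0.466 against 0.761 to 1.88. None of these 4 genes was at 0 in any library of the 2 groups. Over the muscle genes, each library had a median log2(FPKM+0.1) of 0.75, -0.51 and 0.29 in mutants, 1.48, 1.25, 0.83 and 1.24 in wild-type and 1.68, 0.68 and 3.51 in control libraries. The same order of the controls, replicate 3 highest and replicate 2 lowest, was seen for *Ebf2*, *Zfhx4*, *Postn*, *Klf4*, *Ntn1*, *Foxd1* and *Egfl6*, all lower in mutants. It was also seen for genes higher in mutants, such as *Fbln5* and *Cxcl12* (controls at 155, 88.1 and 204 FPKM for *Cxcl12*). The part of muscle tissue in any of these differences was not tested.

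Other tissues gave weaker differences. Liver markers were low and uneven, with *Afp*, the fetal liver protein, at 1.43, 1.38 and 5.85 FPKM in mutants and 9.51, 2.92, 7.17 and 2.91 in wild-type libraries, and overlapping groups. All 6 tested genes of the liver, adrenal, gonad and gut list were lower or level, with a median of -0.60 and 0 at an unadjusted p under 0.05 (limma). That median was -0.26, -0.36 and -0.90 without wild-type replicate 1, mutant replicate 1 or mutant replicate 3. Macrophage and blood cell genes had 21 of 22 lower, 0 at an unadjusted p under 0.05 in limma, and a median of -0.21 (-0.09 without wild-type replicate 3 and -0.32 without mutant replicate 3). Erythroid genes had 13 of 14 higher, 0 at an unadjusted p under 0.05 in limma, and a median of 0.28, which was -0.28 without mutant replicate 3 and 0.65, 0.58, 0.51 and 0.18 without mutant replicate 1, mutant replicate 2, wild-type replicate 3 or wild-type replicate 4. Of 11 nerve and neural crest genes 1 was lower and 1 higher at an unadjusted p under 0.05 (3.31% and 2.45% over all genes). *Stmn2*, a neuronal stathmin, was at 8.30, 8.61 and 4.68 FPKM against 7.95 to 17.2. Cartilage genes had 1 of 11, higher.

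**Figure D5:**
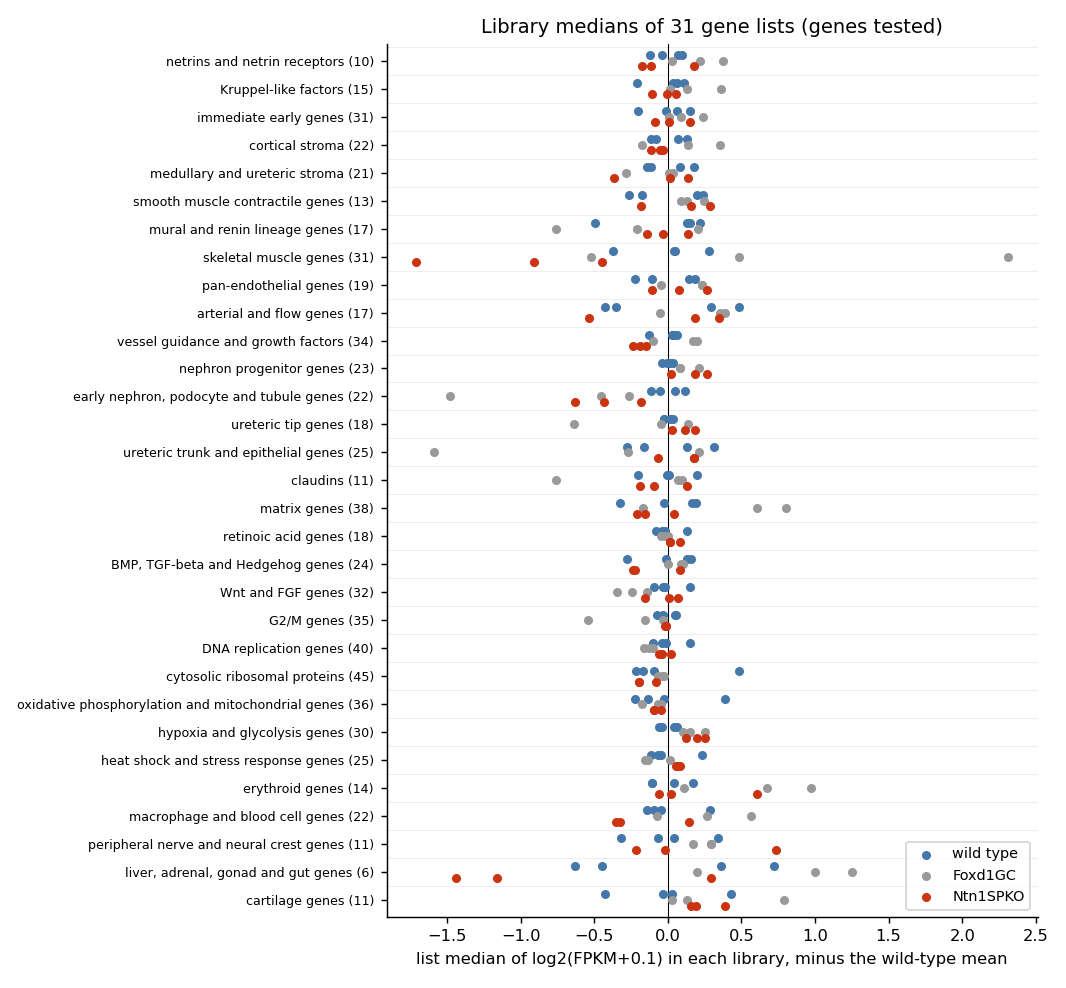
Median log2(FPKM+0.1) of each of 31 gene lists in each library, minus the mean of the 4 wild-type libraries (x axis), with the number of genes tested in brackets and wild-type (blue), *Foxd1GC* control (grey) and *Ntn1SPKO* (red) libraries as points. Red and blue points do not overlap for skeletal muscle genes, whose medians before subtraction span -0.51 to 0.75 in mutants and 0.83 to 1.48 in wild-type libraries, nor for early nephron, vessel guidance and hypoxia genes.

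Cell-cycle lists were level. Of 35 G2/M genes and 40 DNA replication genes, 0 had an unadjusted p under 0.05 in limma in either direction, and the medians were -0.02 and 0.00. Ribosomal protein genes were all lower by small amounts (45 of 45, median -0.14), but the median was 0.00 without wild-type replicate 3. In that library they stood apart, with a library median of 11.27 against 10.57 to 10.69 in the other wild-type and 10.59 to 10.71 in mutant libraries. Respiratory chain genes had 26 of 36 lower and a median of -0.09, with wild-type replicate 3 at a library median of 9.07 against 8.46 to 8.66 in the other wild-type libraries. Hypoxia and glycolysis genes had 23 of 30 higher, 3 of them at an unadjusted p under 0.05 and 7 with groups that did not overlap (2.45% and 3.56% over all genes), and a median of 0.12. *Pdk1*, a kinase that turns pyruvate away from mitochondria, was at 28.5, 29.2 and 29.8 FPKM in mutants against 21.6 to 24.1 in wild-type libraries (difference 0.37, limma adjusted p = 0.152, exact permutation p = 0.0286). *Pfkp*, a phosphofructokinase, was at 3.84, 3.94 and 3.56 FPKM against 2.59 to 2.94, and *Tpi1*, triosephosphate isomerase, at 95.5, 85.2 and 91.4 against 75.2 to 80.9. Control libraries were at 25.6, 26.1 and 26.9 FPKM for *Pdk1*, between the groups, and at 4.03, 3.62 and 3.76 FPKM for *Pfkp*, level with the mutants. Heat shock and stress genes had a median of 0.02, with 1 of 25 at an unadjusted p under 0.05.

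Genes of the X chromosome were not shifted as a whole, with a median difference of -0.02 over 521 genes and 6.14% at an unadjusted p under 0.05, against 0.00 and 5.70% over 13608 autosomal genes. Groups did not overlap for 5.57% lower and 1.34% higher genes of the X chromosome, and for 3.41% and 3.68% of autosomal genes. *Egfl6*, *Il13ra2* and *Cltrn* are X-linked. Against wild-type replicate 3 alone, the one wild-type library that matched the mutants in Y-linked transcripts, the difference was -1.94 for *Il13ra2*, -1.43 for *Cltrn*, -1.04 for *Ntn1*, -0.60 for *Klf4*, -0.68 for *Sema3a* and -0.55 for *Foxd1*, with no test.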

How the data were processed

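Kidneys of E13.5 mouse embryos were profiled by bulk RNA-seq. The authors demultiplexed reads with bcl2fastq 2.17.1.14, quantified coding sequences of Ensembl GRCm38 with Salmon, summarised them with tximport and deposited FPKM per gene. How FPKM were computed is not given in the sources used here. Over the 16550 entries above 0 in all 10 libraries, the median-of-ratios factor was the same in each (1.0018), so the values were already scaled between libraries, and the test rests on scaled values rather than counts.

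From these FPKM, genes with a mean of at least 0.5 over the 7 libraries were tested by limma 3.58.1 in R 4.3.3 (intensity trend) on log2(FPKM+0.1), with Benjamini-Hochberg adjustment. The test was checked on simulated data. Coordinates were matched by symbol from GENCODE on GRCm38 for 96.28% of entries. Named genes were *Ntn1*, *Klf4*, *Cldn1*, *Sema3a* and *Foxd1*, called genes with no overlap between groups, further genes of at least 2-fold in the order of p up to 15 a direction, and up to 5 of smallest p plus defining members per list. Members and lists were chosen with earlier results of these data known. Alternatives were another pseudocount, filter, scaling, variance model, a replicate block, a Y-linked covariate, all 10 libraries in 1 fit and leaving out each library.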

Additional observations from a re-analysis of the deposited data

Results flagged for a closer look

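Of 65 wild-type groups of 4 values examined, 8 held a library whose gap to its nearest neighbour as a share of the group's range exceeded Dixon's 95% critical value. For independent, normally distributed values chance flags about 1 in 20. These groups share genes and libraries, and *Kdm5d* and the sex-linked median both reflect Y-linked transcripts in wild-type replicate 3. The number flagged therefore cannot be set against that share. *Gm49286* was at 14.3 FPKM in wild-type replicate 3 and 6.94 to 7.56 in the others. *Polr2k-ps* was at 16.6 FPKM in wild-type replicate 1 and 4.26 to 4.50 in the others. *Gm8129* was at 11.8 FPKM in wild-type replicate 4 and 2.71 to 2.85 in the others. *Kdm5d*, which is Y-linked, was at 14.4 FPKM in wild-type replicate 3 and 0.0531 to 0.105 in the others. The remaining 4 values are library medians in log2(FPKM+0.1), all of wild-type replicate 3. They were 3.29 for mural and renin lineage genes (others 3.91 to 4.00), 4.10 for vessel guidance and growth factors (others 4.26 to 4.29), 11.27 for cytosolic ribosomal proteins (others 10.57 to 10.69) and 4.42 for sex-linked transcripts (others -2.87 to -2.19).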

How the results depend on the processing

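Over the named genes and settings, 1441 values kept both direction and side of the threshold, 47 passed it newly, 32 lost it and 16 changed sign. The number of genes called lower, 6 as reported, was 2 with a pseudocount of 1, 13 with no filter, 11 with no trend, 131 with Y-linked transcripts as a covariate, 147 at an unadjusted p under 0.1 with a 2-fold change, and 0 with all 10 libraries in 1 limma fit (327 at an unadjusted p under 0.05). Leaving out 1 library gave 1 to 18. The number called higher, 1 as reported, was 0 with a pseudocount of 1 or 0.01 (361 and 349 at an unadjusted p under 0.05 in limma), a filter of 1 FPKM (308), all 10 libraries (303) or an adjusted p under 0.05. It was 5 with no filter, 2 with quantile normalization or with no fold limit, 56 with the Y-linked covariate and 54 at an unadjusted p under 0.1. Leaving out 1 library gave 0 to 9. With the Y-linked covariate the difference equals that from wild-type replicate 3 alone, so the wild-type arm is 1 library, and 2332 lower and 2017 higher genes had an unadjusted p under 0.05. The value of *Ntn1* in that fit (-1.04, limma adjusted p = 0.085) therefore supports no call. *Cldn1* did not pass with a pseudocount of 1 (-1.52, limma adjusted p = 0.101), all 10 libraries (-1.76, limma adjusted p = 0.192) or the replicate block (-1.61, limma adjusted p = 0.221), and leaving out 1 library gave -1.85 to -1.61. The cause was not tested.

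Deviations of same-numbered mutant and wild-type libraries correlated at 0.048, 0.018 and 0.023, and those of differently numbered ones at -0.041 to 0.019. These values do not settle whether the numbers mark pairs. With the replicate block 5 genes were called lower, 3 of them among the 6, and 1 higher, which was not the reported one. *Sema3a* had an adjusted p of 0.0114 to 0.542 over its limma alternatives. Sign changes occurred in 5 genes that did not pass the test. *Acta2* was 0.03 without mutant replicate 1. *Tagln* was -0.04 with the block, -0.46 with the Y-linked covariate and -0.05 to 0.00 without wild-type replicate 4 or mutant replicate 2 or 3 (-0.04, -0.00 and -0.05). *Gja5* was 0.20 with the Y-linked covariate, 0.01 without wild-type replicate 2 and 0.26 without mutant replicate 1. *Neo1* was 0.04 with the block, 0.22 with the Y-linked covariate, and 0.01, 0.00, 0.04 and 0.02 without wild-type replicate 1, 2 or 4 or mutant replicate 3. *Gata3* was -0.03 without mutant replicate 3. Over all single left-out libraries the ranges were -0.25 to 0.03 for *Acta2*, -0.05 to 0.73 for *Tagln*, -0.40 to 0.26 for *Gja5*, -0.09 to 0.04 for *Neo1* and -0.03 to 0.13 for *Gata3*. Of the list medians recomputed, 549 moved by less than the spread between replicates and 27 moved by more, 12 of them with the Y-linked covariate (ribosomal proteins to -0.59, respiratory chain to -0.48).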
